A study of Mus musculus with 12 samples.

Results

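Nuclear receptors are transcription factors that bind DNA and, in most cases, a small lipophilic ligand. The gene set described here holds 35 mouse genes of the nuclear receptor superfamily, named by membership of the family and not by any measured value. Of the 35 genes, 34 were read from a probe set that carries their symbol alone, out of 18193 genes read in this way, and Nr1h2, which encodes liver X receptor beta, was not analysed here. For a gene with several probe sets, the brightest on average was used. A gene was called detected when its log2 value lay above 5, the 40th percentile of all values, on at least 3 of the 12 arrays. By this rule 30 members were detected and tested among 13788 genes. Vdr (the vitamin D receptor), Hnf4g, Nr0b1 (DAX-1) and Nr2f1 (COUP-TFI) were not detected: Vdr was above that level on 2 arrays, with a mean of 4.87, and Hnf4g, Nr0b1 and Nr2f1 on 0 arrays, with means of 3.65, 3.98 and 3.59.

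Liver RNA of 12 male C57BL6J mice was measured on 3′ expression arrays at 30 weeks of age, 1 array per mouse. Penicillin mice drank water with penicillin at 6.7 mg/L, a low dose, and control mice drank water without antibiotic. Every mouse began on chow with 13.5% of its energy as fat, and the high-fat groups were given a diet with 45% from 17 weeks of age. The 4 groups of 3 mice are called penicillin high-fat, control high-fat, penicillin chow and control chow, and a number after the name marks the mouse, as in penicillin high-fat 1. The comparisons are of penicillin with control mice on either diet, of high-fat with chow mice within either treatment, and of those diet effects with each other.

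Receptors of the PPAR, liver X, farnesoid X, thyroid hormone and retinoic acid types pair with a retinoid X receptor (RXR) on DNA and switch sets of metabolic genes when their ligand is present, while others, such as HNF4A and the ROR proteins, act largely without a circulating hormone. In liver the family sets fatty acid oxidation, lipogenesis, bile acid synthesis and the phase of metabolic rhythms. Much of this control lies in ligands and partner proteins, which these arrays do not read.

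Values below are log2 expression after RMA. A change is a difference of group means on that scale, given with its standard error (SE), each group holding 3 mice. Adjusted p-values are from limma with the Benjamini-Hochberg procedure over all 13788 genes, and a gene is said to have risen or fallen when its adjusted p was under 0.05. These p-values rest on how far mice of a group differ. In whole liver, fewer cells of a type and less RNA per cell cannot be told apart.

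Several arrays stood apart before any receptor was considered. The 18S control signal was 11.76 to 11.81 on penicillin high-fat 2, penicillin chow 2 and penicillin chow 3, and at least 12.67 on the other 9 arrays. Penicillin high-fat 1 had the lowest score of clock genes (-1.65, against -0.74 or more elsewhere), and penicillin chow 1 had the highest level of the acute-phase gene Saa1 (13.76, against 11.91 or less elsewhere). The hepatocyte markers, of which 9 of 9 were detected, had nearly the same summed signal on every array: log2 17.23 to 17.26 in penicillin high-fat, 17.30 in control high-fat, 17.29 to 17.30 in penicillin chow and 17.28 to 17.33 in control chow livers.

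Most receptor mRNAs moved little with diet. The diet effect averaged over penicillin and control mice passed the threshold for 2 of 30 members (6.67%), beside 14.5% of all genes tested. Rora, which encodes the retinoid-related orphan receptor alpha, rose by 0.35, and Nr3c2, the mineralocorticoid receptor, fell by 0.62. Another 5 members, Nr2f2, Esrrg, Nr1h3, Pparg and Esr1, had an unadjusted p under 0.05, so that 7 of 30 did, beside 30.1% of all genes. For 26 of the 30 members the 95% interval of the averaged diet effect lay within a 1.5-fold change in either direction, and for 29 within 2-fold. Some members outside these 2 passed when arrays were left out. Esr1 passed without penicillin high-fat 3 and Esrra without control high-fat 3. Thra and Nr2f2 passed without penicillin high-fat 1 and penicillin chow 1 together. A further case of Nr2f2 is given below, and the cases given with Pparg are of the diet change within penicillin mice. For 0 members did all 6 high-fat livers lie on 1 side of all 6 chow livers, which 6.49% of all genes did. The median size of the averaged diet effect was 0.136 over the members and 0.104 over all genes.

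**Figure D1:**
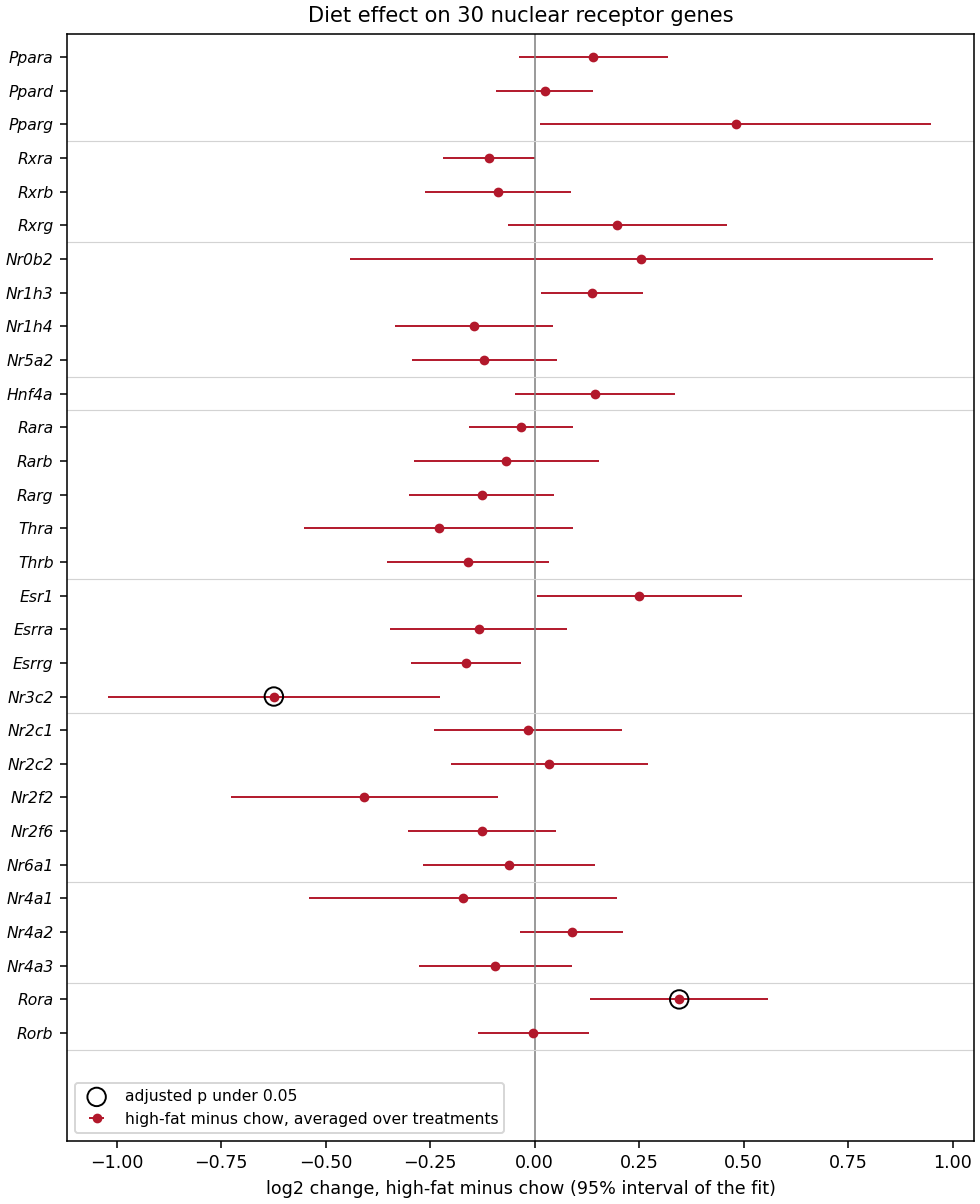
Change of each of the 30 detected members with diet on the log2 scale (high-fat minus chow, averaged over penicillin and control mice, 6 mice per diet), as points with the 95% interval of the fit, in blocks by role. Circles mark Rora (0.35) and Nr3c2 (-0.62), the 2 members past the threshold, and Nr0b2 has one of the widest intervals (-0.44 to 0.95).

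Rora showed the clearest rise. RORA binds response elements in clock and lipid genes and activates them. Its probe set read 10.57, 10.08 and 10.56 in penicillin high-fat livers, 10.34, 10.21 and 10.25 in control high-fat livers, 9.79, 10.27 and 10.02 in penicillin chow livers and 9.96, 9.93 and 9.97 in control chow livers. All 3 control high-fat livers lay above all 3 control chow livers, whereas in penicillin mice the lowest high-fat liver lay below the highest chow liver. Averaged over treatments the high-fat mean was 10.34 and the chow mean 9.99, a change of 0.35 ± 0.10 (SE) or 1.27-fold (95% interval 1.10 to 1.47, adjusted p = 0.0356). The rise was 0.38 ± 0.14 in penicillin mice (adjusted p = 0.118) and 0.32 ± 0.14 in control mice (adjusted p = 0.307), and the difference between these was 0.06 ± 0.20 (adjusted p = 0.983). The adjusted p was under 0.05 without penicillin high-fat 2 or without penicillin chow 2, and lay between 0.0548 and 0.0848 when any 1 of the other 10 arrays was left out. Without the 3 arrays of low 18S signal the change was 0.54. That fit leaves penicillin chow 1, which had the lowest Rora value of all at 9.79, alone in its group. With 18S signal as a covariate the change was 0.32 (adjusted p = 0.0613). Adding the clock score to the fit gave 0.28 (adjusted p = 0.126), and leaving out penicillin high-fat 1 and penicillin chow 1 together gave 0.25 (adjusted p = 0.121).

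Further probe sets of Rora gave the same direction. When each of 23799 detected single-gene probe sets was tested as its own feature, 5 of the 8 detected Rora probe sets rose with diet, against 12.3% of all probe sets. Those were 1424034_at (0.35 ± 0.10), 1436326_at (0.28 ± 0.06), 1455165_at (0.56 ± 0.15), 1436325_at (0.33 ± 0.06) and 1420583_a_at (0.34 ± 0.08). The smallest adjusted p among them was 0.00539, for 1436325_at. On that probe set the high-fat livers read 9.27, 9.28 and 9.36 (penicillin) and 9.25, 9.44 and 9.47 (control), and the chow livers 8.99, 9.17 and 8.98 (penicillin) and 9.04, 8.99 and 8.89 (control), so the 6 high-fat livers all lay above the 6 chow livers. The other 3 detected Rora probe sets stood at 0.17, -0.10 and -0.01 and did not pass. Without penicillin high-fat 1 and penicillin chow 1 together, 1 of the 8 passed. Probe sets of a gene share the same RNA and are not independent samples.

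Nr3c2 showed the largest fall. It encodes the mineralocorticoid receptor, which binds aldosterone and glucocorticoids and is best known for salt handling in the kidney. The single Nr3c2 probe set read 7.21, 7.01 and 6.36 in penicillin high-fat livers, 6.71, 6.94 and 7.12 in control high-fat livers, 7.27, 7.79 and 7.71 in penicillin chow livers and 7.93, 6.97 and 7.43 in control chow livers. The 3 penicillin high-fat livers lay below the 3 penicillin chow livers, and in control mice the groups overlapped through control chow 2. Averaged over treatments the high-fat mean was 6.89 and the chow mean 7.52, a change of -0.62 ± 0.18 (SE), or 0.649-fold (95% interval 0.493 to 0.854, adjusted p = 0.0400). The change was -0.73 ± 0.26 in penicillin mice (adjusted p = 0.103) and -0.52 ± 0.26 in control mice (adjusted p = 0.372). Within groups Nr3c2 varied with an SD of 0.37, more than 96.6% of all genes. The adjusted p was under 0.05 without control high-fat 3, penicillin high-fat 1, penicillin chow 1 or control chow 2, and lay between 0.0520 and 0.0942 when any 1 of the other 8 arrays was left out. Without the 3 arrays of low 18S signal, which leaves penicillin chow 1 alone in its group, the change was -0.50. It was -0.55 with 18S signal as a covariate (adjusted p = 0.0665) and -0.63 with the clock score in the fit (adjusted p = 0.0940).

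Other liver cell types moved with the same diet contrast. Of the macrophage and Kupffer cell markers, 12 of 15 rose on the averaged diet effect and 0 fell, beside 9.63% and 4.85% of all genes. Their summed signal was 13.66 to 14.25 in penicillin high-fat and 14.09 to 14.19 in control high-fat livers. It was 13.01 to 13.59 in penicillin chow and 13.65 to 13.78 in control chow livers. Of the stellate cell markers, 8 of 12 rose, with summed signals of 12.92 to 13.29, 12.96 to 13.14, 12.32 to 12.61 and 12.76 to 12.94 in the same groups. Of the endothelial markers, 7 of 12 rose (12.25 to 12.50, 12.37 to 12.48, 11.83 to 12.12 and 12.11 to 12.21), while 0 of 9 hepatocyte markers rose and 1 fell. Within penicillin mice 10 of 15 macrophage, 7 of 12 stellate and 4 of 12 endothelial markers rose with diet, beside 6.43% of all genes. Within control mice 0 markers of these 3 types passed, beside 0.899% of all genes. The part of these cells in the changes of Rora, Nr3c2 and the other members was not tested.

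The sequences before the transcription start sites of both genes are given because these were the 2 members past the threshold. They are RefSeq windows of build GRCm38.p6 that cover the 250 bases before the first annotated start, both on the plus strand, chr9:68653536-68653785 for Rora and chr8:76902080-76902329 for Nr3c2. Capitals mark CCAAT and GGGCGG on either strand (ATTGG and CCGCCC on the strand shown).
Rora: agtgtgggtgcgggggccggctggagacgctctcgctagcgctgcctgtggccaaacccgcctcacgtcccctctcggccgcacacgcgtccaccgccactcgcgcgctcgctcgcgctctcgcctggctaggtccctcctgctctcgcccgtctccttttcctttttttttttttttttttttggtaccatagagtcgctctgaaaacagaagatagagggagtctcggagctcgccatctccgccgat
Nr3c2: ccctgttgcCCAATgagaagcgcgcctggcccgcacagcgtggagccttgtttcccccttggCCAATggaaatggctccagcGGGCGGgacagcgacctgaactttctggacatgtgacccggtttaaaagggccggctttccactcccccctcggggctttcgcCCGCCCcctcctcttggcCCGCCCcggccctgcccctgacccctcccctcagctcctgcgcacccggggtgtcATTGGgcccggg
The Nr3c2 window held CCAAT 3 times and GGGCGG 3 times, and the Rora window held neither. The nuclear receptor half-site AGGTCA, searched on both strands, was in neither window. Among the 53 windows of the 33 members with an entry, AGGTCA was in 10 (18.9%), against 14.0% of all 32851 windows. GGGCGG was in 26 of the 53 (49.1%, against 32.7%), CCAAT in 16 (30.2%, against 33.8%), the E-box CACGTG in 3 (5.66%, against 6.02%) and TATAAA in 7 (13.2%, against 12.4%). AGGTCA repeated with 1 base between the copies was in 0 member windows and in 0.0335% of all windows. Windows of several starts of a gene can overlap, and a match is a run of letters, not a binding site.

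Among the lipid sensors, Pparg had the largest difference between any pair of groups compared. PPARG binds fatty acids and drives fat storage genes, and in liver it is known to rise with steatosis. Its probe set read 8.36, 8.75 and 7.92 in penicillin high-fat livers, 7.70, 7.69 and 7.26 in control high-fat livers, 6.69, 7.93 and 7.71 in penicillin chow livers and 7.40, 7.22 and 7.85 in control chow livers. The penicillin high-fat livers lay above the control high-fat livers, and overlapped the penicillin chow livers through penicillin chow 2. On the high-fat diet the penicillin mean was 8.34 and the control mean 7.55, a change of 0.79 ± 0.30 or 1.73-fold (95% interval 1.10 to 2.74, adjusted p = 0.388). High-fat against chow it was 0.90 ± 0.30 in penicillin mice (adjusted p = 0.0909) and 0.06 ± 0.30 in control mice (adjusted p = 0.957), with a difference between them of 0.84 ± 0.43 (adjusted p = 0.853). Neither comparison of the penicillin high-fat group passed the threshold, and both use the same 3 arrays. Without the 3 arrays of low 18S signal the change with diet in penicillin mice was 1.45 (adjusted p = 0.0237, with 1 penicillin chow array left), with 18S signal as a covariate it was 1.14 (adjusted p = 0.0329), and without penicillin chow 1 it was 0.53 (adjusted p = 0.220). Of 6 adipocyte markers 3 were on the array, and 2 of those, Adipoq and Lep, the defining ones, were not detected. The summed signal of the 3, with the undetected pair included, was 6.61 to 6.85 in penicillin high-fat, 6.68 to 6.80 in control high-fat, 6.88 to 6.89 in penicillin chow and 6.72 to 6.83 in control chow livers. Only 1 gene of this sum was detected, and the part of fat tissue in these samples was not tested.

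The other lipid sensors were steadier. Ppara, the receptor that switches on fatty acid oxidation in fasting, ranged from 11.45 in penicillin chow 2 to 11.90 in control high-fat 1. Its averaged diet effect was 0.14 ± 0.08 (adjusted p = 0.274), and its largest difference between groups was 0.20 ± 0.12 with diet in control mice (adjusted p = 0.434). Ppard, its broadly expressed relative, stayed between 5.95 and 6.17, with a largest difference of 0.07 ± 0.07 (adjusted p = 0.704). The 3 detected Ppara probe sets all had a positive diet effect, of 0.14 to 0.21.

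The RXR partners differed in how far mice of a group varied, with a within-group SD of 0.064 for Rxra, 0.146 for Rxrb and 0.236 for Rxrg. Rxra, the main hepatic RXR and the member of lowest SD (percentile 5.64 of all genes), read 10.79, 10.90 and 10.90 in penicillin high-fat livers, 11.10, 11.10 and 11.11 in control high-fat livers, 11.16, 10.98 and 11.16 in penicillin chow livers and 11.06, 11.13 and 11.08 in control chow livers. The 3 penicillin high-fat livers were the lowest of the 12. The change with penicillin on the high-fat diet was -0.24 ± 0.07 or 0.848-fold (adjusted p = 0.248), and the change with diet in penicillin mice was -0.23 ± 0.07 (adjusted p = 0.0668), again against the same 3 arrays. In control mice the diet change was 0.01 ± 0.07, and the difference between the diet changes was -0.25 ± 0.10 (adjusted p = 0.775). The diet change in penicillin mice passed the threshold under cyclic loess, under array weights, under a trended robust variance and without penicillin chow 2, and its adjusted p ranged from 0.0344 to 0.217 over all alternatives. With the mean of all Rxra probe sets the change with penicillin on the high-fat diet was -0.06 (adjusted p = 0.803). That mean includes a probe set that was not detected, at 0.14, beside detected sets at -0.24 and -0.09. Rxrb ranged from 9.32 to 9.83 and Rxrg from 5.80 to 6.66, and their largest differences, both with diet in penicillin mice, were -0.19 ± 0.11 (adjusted p = 0.342) and 0.26 ± 0.17 (adjusted p = 0.379).

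**Figure D2:**
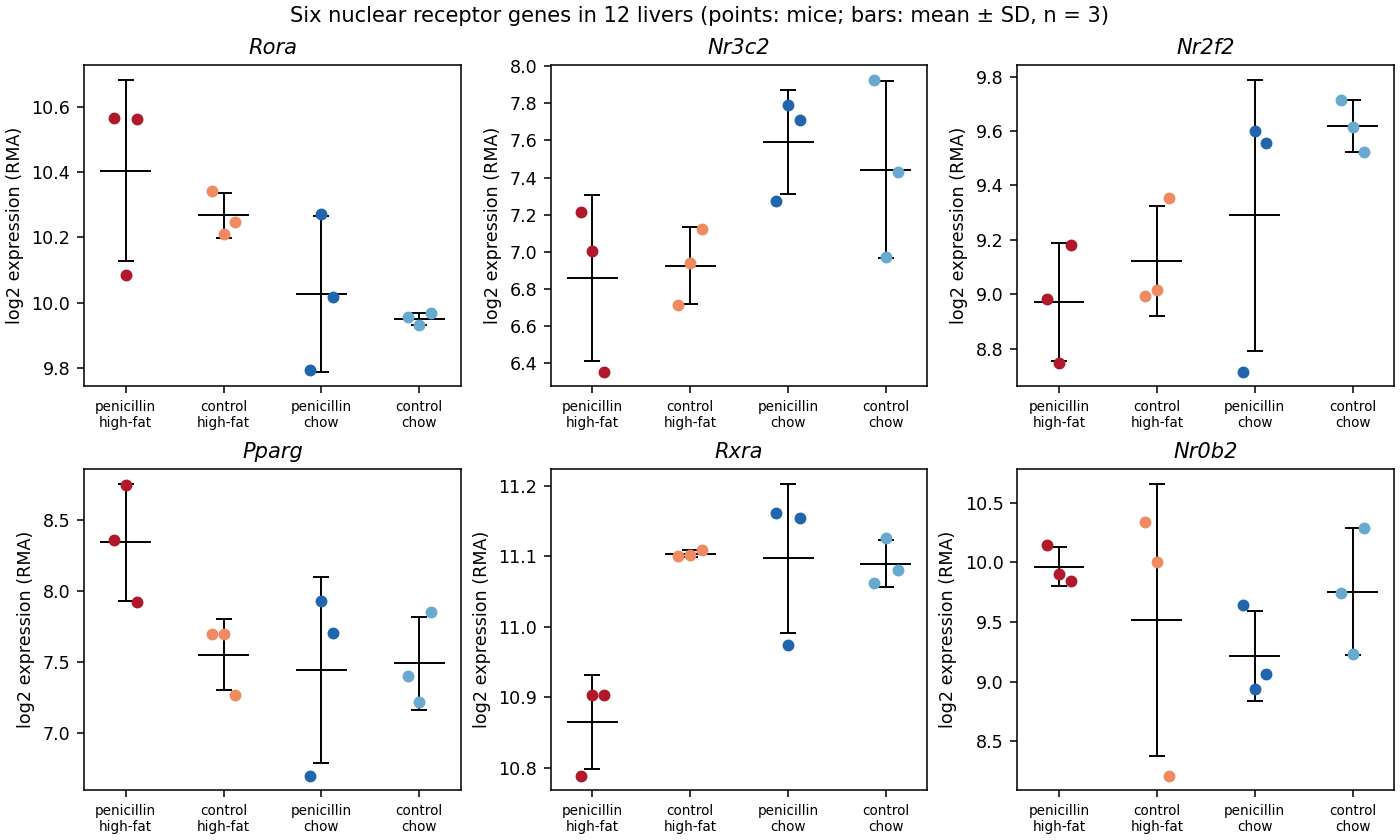
Log2 expression of 6 members in each of the 12 livers (points), with the mean and SD of each group of 3 mice as bars. Axes differ between panels. Rora is higher and Nr3c2 lower in the high-fat groups, the 3 penicillin high-fat livers are the lowest for Rxra, and Nr0b2 spans 8.21 to 10.33 within the control high-fat group.

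The sterol and bile acid receptors did not pass the threshold in any comparison. Nr1h3 encodes liver X receptor alpha, the oxysterol sensor that induces lipogenesis and cholesterol efflux. It read 9.39, 9.52 and 9.36 in penicillin high-fat, 9.45, 9.64 and 9.58 in control high-fat, 9.42, 9.25 and 9.40 in penicillin chow and 9.31, 9.41 and 9.33 in control chow livers. The control high-fat livers all lay above the control chow livers, and the penicillin groups overlapped. Its change with diet was 0.21 ± 0.08 in control mice (adjusted p = 0.247) and 0.14 ± 0.06 averaged over treatments (adjusted p = 0.124). Nr1h4, the farnesoid X receptor that senses bile acids, ranged from 10.28 to 10.89, with a largest difference of -0.18 ± 0.12 with penicillin on the high-fat diet (adjusted p = 0.671).

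Nr5a2 encodes LRH-1, which drives bile acid synthesis genes. Its values were 9.72, 9.39 and 9.69 in penicillin high-fat, 9.70, 9.66 and 9.95 in control high-fat, 9.82, 9.99 and 9.94 in penicillin chow and 9.55, 9.77 and 9.76 in control chow livers. The penicillin chow livers lay above the penicillin high-fat livers and above the control chow livers. The diet change was -0.32 ± 0.11 in penicillin mice (adjusted p = 0.105) and 0.08 ± 0.11 in control mice, and their difference of -0.39 ± 0.16 had an adjusted p of 0.768. The change with penicillin on chow was 0.22 ± 0.11 (adjusted p = 0.677). Nr0b2, singled out after its values were seen, encodes SHP, a repressor without a DNA-binding domain that is induced by farnesoid X receptor. It read 10.15, 9.90 and 9.84 in penicillin high-fat, 10.33, 10 and 8.21 in control high-fat, 9.64, 8.94 and 9.06 in penicillin chow and 9.74, 9.23 and 10.29 in control chow livers. Its within-group SD of 0.66 exceeded that of 99.4% of genes, and control high-fat 3 alone was at 8.21. The penicillin high-fat livers lay above the penicillin chow livers, yet the change of 0.75 ± 0.45 (adjusted p = 0.338) did not pass.

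Hnf4a, the receptor that maintains hepatocyte identity, read 12.39, 12.61 and 12.64 in penicillin high-fat, 12.76, 12.89 and 12.37 in control high-fat, 12.64, 12.54 and 12.53 in penicillin chow and 12.41, 12.43 and 12.24 in control chow livers. The control high-fat and control chow livers overlapped through control high-fat 3, and the penicillin chow livers all lay above the control chow livers. The change with diet in control mice was 0.31 ± 0.12 (adjusted p = 0.261), and that with penicillin on chow was 0.21 ± 0.12 (adjusted p = 0.737). All 4 Hnf4a probe sets had a positive averaged diet effect, of 0.10 to 0.20, and none passed. Hnf4g, its relative, was not detected.

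The receptors for retinoic acid and thyroid hormone had diet effects below 0 for all 5 detected members, of -0.23 to -0.03 when averaged over treatments, and 0 of 5 passed. Rarb, a receptor that is itself a retinoic acid target, read 6.14, 6.16 and 6.10 in penicillin high-fat, 5.77, 5.67 and 6.001 in control high-fat, 6.33, 6.16 and 5.98 in penicillin chow and 5.81, 6.27 and 5.70 in control chow livers. On the high-fat diet the penicillin livers all lay above the control livers, and on chow the groups overlapped through control chow 2. Its change with penicillin was 0.32 ± 0.14 on the high-fat diet (adjusted p = 0.476), 0.23 ± 0.14 on chow (adjusted p = 0.755) and 0.28 ± 0.10 averaged over diets (adjusted p = 0.315). Rara ranged from 6.61 to 6.87 and Rarg from 7.66 to 8.15, with largest differences of 0.12 ± 0.08 with penicillin on chow (adjusted p = 0.771) and -0.17 ± 0.11 with diet in control mice (adjusted p = 0.510). Thrb, the main thyroid hormone receptor of hepatocytes, ranged from 5.81 to 6.47, with a largest difference of -0.18 ± 0.13 with diet in penicillin mice (adjusted p = 0.425). Thra ranged more widely, from 7.19 to 8.01, with a largest difference of -0.32 ± 0.21 with diet in control mice (adjusted p = 0.504).

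Esr1 encodes estrogen receptor alpha, which acts in liver on lipid and glucose metabolism. It read 9.52, 9.39 and 8.94 in penicillin high-fat, 9.36, 9.04 and 9.48 in control high-fat, 9.29, 9.20 and 9.15 in penicillin chow and 8.63, 9.02 and 8.94 in control chow livers. The control chow livers lay below both the control high-fat and the penicillin chow livers. The change with diet in control mice was 0.43 ± 0.16 (adjusted p = 0.224) and that with penicillin on chow 0.35 ± 0.16 (adjusted p = 0.651), and both comparisons use the same 3 control chow arrays. Esrra, an orphan receptor of mitochondrial genes, ranged from 7.89 to 8.52, with a largest difference of -0.17 ± 0.14 with diet in control mice (adjusted p = 0.593).

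Esrrg, the related orphan receptor ERR gamma, lay close to the detection level. Its brightest probe set read 4.93, 5.02 and 5.17 in penicillin high-fat, 5.14, 5.08 and 5.24 in control high-fat, 5.37, 5.43 and 5.20 in penicillin chow and 5.20, 5.17 and 5.19 in control chow livers. The penicillin chow livers were above the penicillin high-fat livers and above the control chow livers, in both cases by narrow margins. The change with diet in penicillin mice was -0.29 ± 0.09 (adjusted p = 0.0550), and it passed without penicillin high-fat 3 or without penicillin chow 3. The other detected Esrrg probe set lay above the detection level on 5 high-fat arrays but on only 2 chow arrays. It met the detection rule through the high-fat livers. Its averaged diet difference of 0.40, of the opposite sign, is therefore a description with no test. With the mean of all Esrrg probe sets the diet change in penicillin mice was 0.12.

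Among the orphan receptors of the NR2 and NR6 groups, Nr2f2 (COUP-TFII, known in veins, stroma and glucose metabolism) came nearest to the threshold. It read 8.98, 8.75 and 9.18 in penicillin high-fat, 8.996, 9.02 and 9.36 in control high-fat, 8.72, 9.600 and 9.56 in penicillin chow and 9.71, 9.61 and 9.52 in control chow livers. Penicillin chow 1 had the lowest value of all 12, and each of the other 5 chow livers lay above every high-fat liver. The averaged diet effect was -0.41 ± 0.15 or 0.754-fold (95% interval 0.604 to 0.941, adjusted p = 0.0857). Without penicillin chow 1, the array of high Saa1, it was -0.55 (adjusted p = 0.00310), and without the 3 arrays of low 18S signal, which leaves penicillin chow 1 as the only array of its group, it was -0.06 (adjusted p = 0.715). Of 5 detected Nr2f2 probe sets, 4 had a negative averaged diet effect (-0.41 to -0.22), 1 a positive one (0.13), and 0 passed.

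Nr2c1 and Nr2c2 (TR2 and TR4) and Nr6a1 (GCNF) are further orphan receptors, and Nr2f6 is a COUP-TF relative. Nr2c1 ranged from 7.45 to 8.07, Nr2c2 from 9.03 to 9.53, Nr2f6 from 9.47 to 9.998 and Nr6a1 from 6.08 to 6.61. Their largest differences were 0.14 ± 0.15 with penicillin on chow for Nr2c1, 0.04 ± 0.15 with diet in penicillin mice for Nr2c2, and -0.21 ± 0.11 and -0.17 ± 0.13 with diet in control mice for Nr2f6 and Nr6a1, with adjusted p of 0.414 or more. The dimmest detected Nr2c1 probe set, 1446194_at, rose with diet by 0.25 ± 0.06 (adjusted p = 0.0256) while the other 4 stood between -0.05 and 0.00. Rorb, the relative of Rora known from brain and retina, stayed between 5.42 and 5.72, with changes of at most 0.04 ± 0.09 in size.

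The NR4A receptors are encoded by immediate early genes and respond to hormones, cold and stress without a known hormone ligand of their own. Nr4a1 ranged from 5.98 to 7.07, with a largest difference of -0.29 ± 0.24 (adjusted p = 0.616), and Nr4a3 from 6.55 to 7.01, with one of -0.12 ± 0.12 (adjusted p = 0.588). Nr4a2 ranged from 5.94 to 6.27 on its brightest probe set, with a largest difference of 0.15 ± 0.08 with diet in control mice (adjusted p = 0.394). Singled out after its values were seen, it split between its probe sets. The 3 brightest had averaged diet effects of 0.09 ± 0.06, -0.01 ± 0.07 and -0.06 ± 0.05. The next, 1447863_s_at, rose by 0.36 ± 0.08 (adjusted p = 0.0143). The dimmest 2, 1450750_a_at and 1455034_at, had high-fat means above their chow means by 0.48 and 1.05. They lay above the detection level on 5 and 3 high-fat arrays but on only 1 and 0 chow arrays, so that they were tested through the high-fat livers alone, and their differences are given as a description with no test.

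These Nr4a2 values lay at the dim end of the table. On 1447863_s_at the livers read 5.34, 5.53 and 5.66 in penicillin high-fat, 5.26, 5.56 and 5.45 in control high-fat, 5.03, 5.10 and 5.16 in penicillin chow and 5.25, 5.17 and 4.94 in control chow. All 6 high-fat livers lay above all 6 chow livers, control high-fat 1 only just above control chow 1. On 1455034_at they read 4.48, 5.34 and 6.09 in penicillin high-fat, 4.20, 5.55 and 4.66 in control high-fat, 4.23, 3.61 and 4.13 in penicillin chow and 4.44, 4.10 and 3.54 in control chow, so that most values lay under the detection level of 5 and the groups overlapped. In this array's naming, the ending _s_at marks a set that may also match other transcripts and _a_at one that matches several transcripts of 1 gene. Where each set lies in the transcript was not used here. The probe sets of 7 of the 18 members with more than 1 detected set differed in the sign of the diet effect. Nr4a2 and Esrrg are among them, with sets that met the detection rule only through the high-fat livers.

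**Figure D3:**
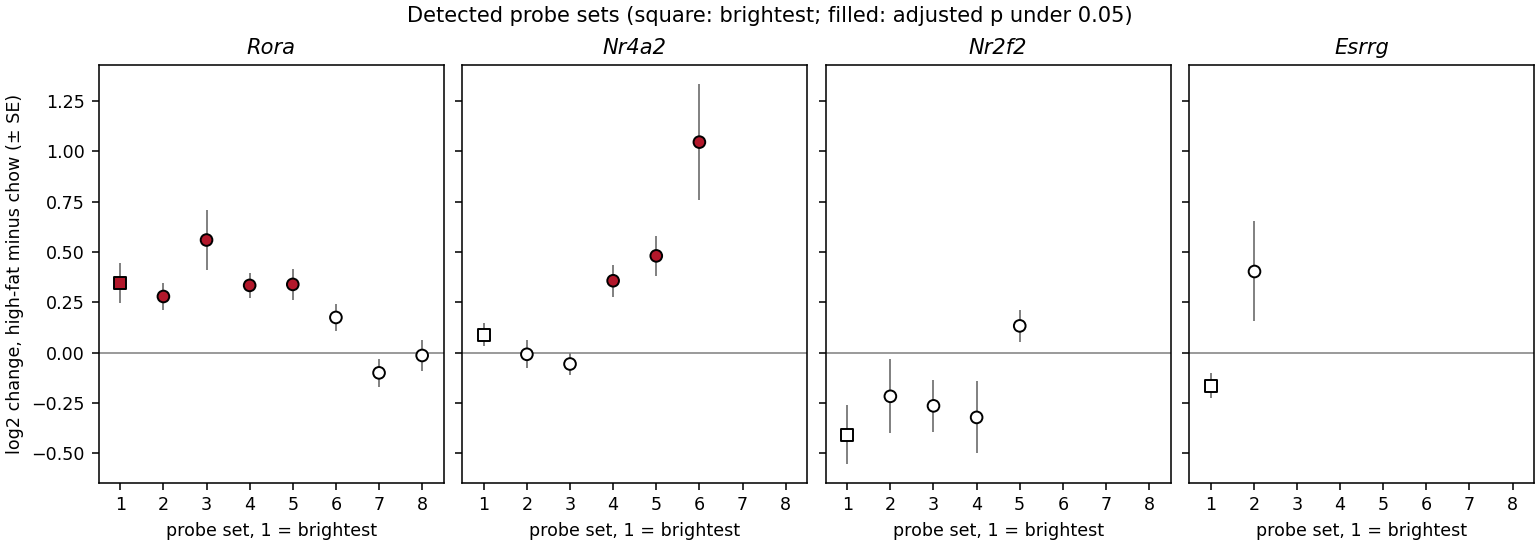
Averaged diet effect (log2, high-fat minus chow, with SE) of every detected probe set of Rora, Nr4a2, Nr2f2 and Esrrg, ordered from the brightest (square) to the dimmest. Filled symbols had an adjusted p under 0.05: the 5 brightest of Rora and the 3 dimmest of Nr4a2. The last 2 of Nr4a2 and the dimmer Esrrg set entered the fit only through the high-fat livers. They are shown as a description, and the filling of those Nr4a2 sets is not taken as a test. Of 5 Nr2f2 sets 4 lie below 0, and the 2 Esrrg sets lie on opposite sides of 0.

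Within single groups of mice, diet and penicillin each moved 0 of the 30 members past the threshold. In penicillin mice the diet effect passed for 8.32% of all genes (6.43% higher) and in control mice for 0.899%. By unadjusted p under 0.05 there were 6 members in penicillin mice, against 24.5% of all genes, and 5 in control mice, against 15.1%. Groups did not overlap for 5 members in penicillin mice (Nr0b2 above; Esrrg, Rxra, Nr3c2 and Nr5a2 below), against 28% of all genes, and for 7 in control mice (Esr1, Nr1h3, Rora and Ppara above; Nr2f2, Nr2f6 and Thrb below), against 22.8%. The count in penicillin mice was 1 or 2 in place of 0 under several alternatives, 5 of which each left out 1 array: Nr2f2 passed without penicillin chow 1, Rxra without penicillin chow 2, Esrrg without penicillin chow 3 or penicillin high-fat 3, and Rora without penicillin high-fat 2.

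Penicillin on the high-fat diet passed for 0 of 30 members, against 0.341% of all genes, and on chow for 0, against 0.00725%, which is 1 gene. The unadjusted p was under 0.05 for 3 members on the high-fat diet (Rxra, Pparg and Rarb), against 10.1% of all genes, and for 1 on chow (Esr1), against 7.62%. On the high-fat diet the penicillin and control livers did not overlap for 7 members (Pparg, Rarb and Nr4a1 above; Rxra, Rxrb, Ppara and Nr4a2 below), against 17.3% of genes. On chow they did not overlap for 5, all higher with penicillin (Esr1, Nr5a2, Esrrg, Hnf4a and Nr2c1), against 11.8% of genes in either direction and 4.79% higher. Averaged over diets 0 of 30 passed, against 0.145%, 0 had all 6 penicillin livers on 1 side of all 6 control livers, against 0.508%, and 2 members had an unadjusted p under 0.05 (Rarb and Rxra), against 11.9%. The interaction passed for 0 members, against 0.0435%, and the unadjusted p was under 0.05 for Nr5a2 and Rxra, against 6.11% of genes. The intervals bound what these arrays could miss: the penicillin effect lay within 2-fold in either direction for 28 members on the high-fat diet and 29 on chow, and the interaction for 27. Without the 3 arrays of low 18S signal Nr2f2 passed for penicillin on chow and averaged over diets, where penicillin chow 1 then stands alone for its group.

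**Figure D4:**
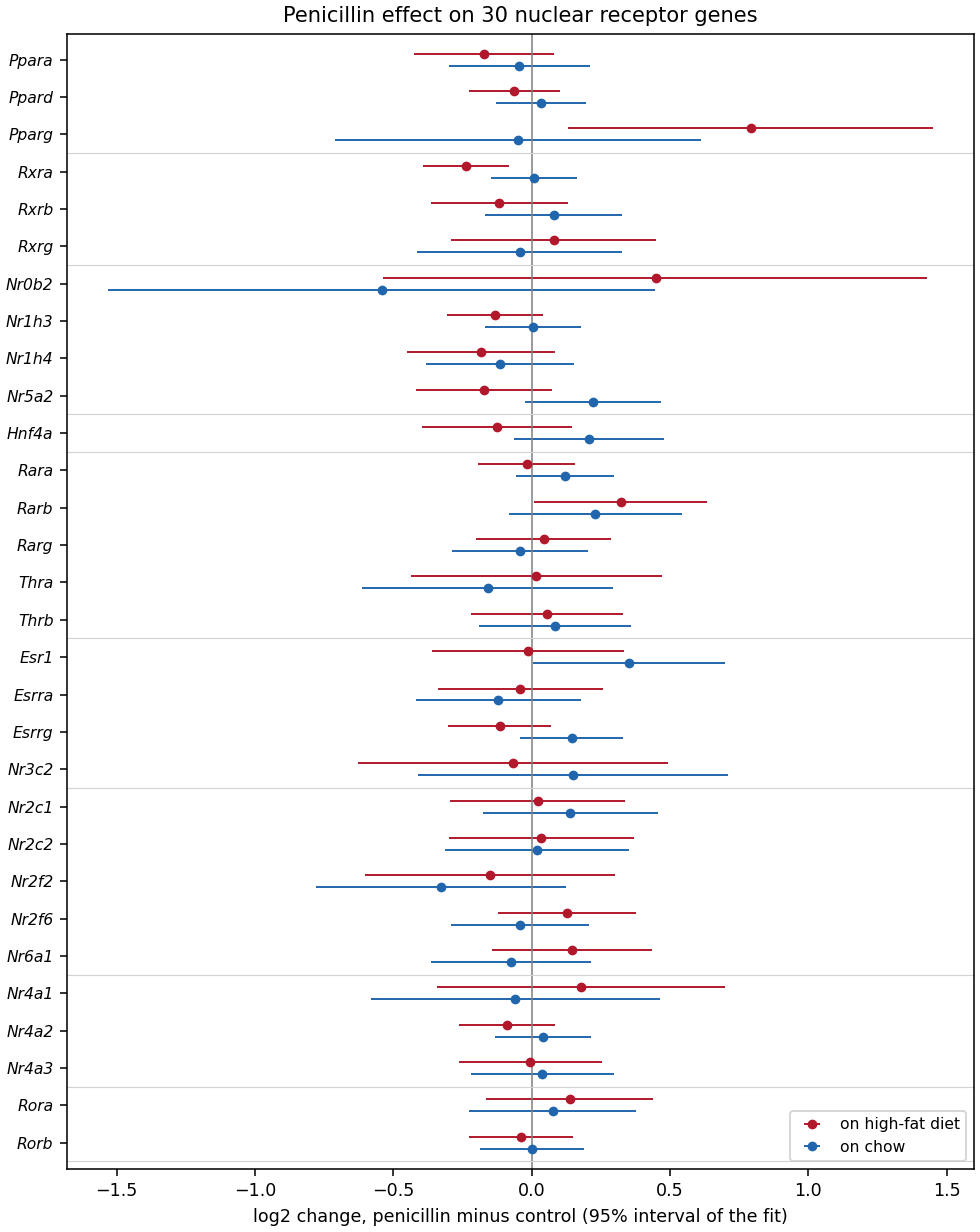
Change of each of the 30 detected members with penicillin on the log2 scale (penicillin minus control, 3 mice per group), on the high-fat diet and on chow, with the 95% interval of the fit. No member passed the threshold on either diet; Pparg on the high-fat diet (0.79) and Nr0b2 on chow (-0.54) have the changes farthest from 0.

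Listed target genes of the PPARs reached larger changes with diet than any receptor gene. These lists of targets were put together from textbook knowledge, with earlier results of these data known. Their counts are a description, given beside 9.63% of all genes higher and 4.85% lower with diet. Of the PPAR alpha targets, 6 of 12 tested rose on the averaged diet effect and 0 fell, with a median change of 0.284. Among them were Fgf21, a fasting hormone (1.94 ± 0.28, adjusted p = 0.00147), Pdk4, which spares pyruvate (1.72 ± 0.29, adjusted p = 0.00314), Vnn1, a pantetheinase (1.52 ± 0.19, adjusted p = 0.000710), and Cyp4a14, a fatty acid hydroxylase (1.19 ± 0.19, adjusted p = 0.00270), while Ppara itself stood at 0.14 ± 0.08. Of the PPAR gamma targets, 6 of 7 rose and 0 fell, with a median of 1.2. They included the lipid droplet protein Cidea (2.46 ± 0.27, adjusted p = 0.000367), the fatty acid transporter Cd36 (1.204 ± 0.08, adjusted p = 7.85e-06), Mogat1, which makes diacylglycerol (1.18 ± 0.15, adjusted p = 0.000678), and the fatty acid binding protein Fabp4 (1.11 ± 0.16, adjusted p = 0.00173). Fabp4 is also made by macrophages, whose markers rose as given above, and their part in its rise was not tested. Within penicillin mice 6 of 12 PPAR alpha and 6 of 7 PPAR gamma targets rose with diet, beside 6.43% of all genes. Within control mice 1 of 12 and 1 of 7 rose, beside 0.899% of all genes in either direction. Cidea changed by 4.36 in penicillin mice and by 0.56 in control mice, where it did not pass. Of the 6 chow arrays, 4 had Cidea above the detection level. Without penicillin high-fat 1 and penicillin chow 1 together 5 PPAR alpha and 6 PPAR gamma targets rose, beside 11.7% of all genes in either direction.

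Several PPAR gamma targets, from the list chosen with earlier results of these data known, also moved with penicillin on the high-fat diet. There 4 of 7 rose and 0 fell, against 0.254% of all genes higher: Cidea (3.70 ± 0.38, adjusted p = 0.00154), Cidec, another lipid droplet protein (2.96 ± 0.39, adjusted p = 0.00841), Mogat1 (1.60 ± 0.21, adjusted p = 0.00728) and Cd36 (1.24 ± 0.11, adjusted p = 0.000551). Pparg mRNA in the same comparison was the change of 0.79 ± 0.30 given above. The interaction passed for 2 of the 7, both above 0 (beside 0.0363% of all genes), and penicillin on chow for 0 (beside 0.00725% of all genes). Of the PPAR alpha targets 0 of 12 passed for penicillin on the high-fat diet, with Pdk4 at 1.61 ± 0.41 (adjusted p = 0.147).

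For the other receptors the share of targets past the threshold with diet differed between lists, beside 14.5% of all genes. It was 44.4% for liver X, 42.9% for thyroid hormone, 30% for HNF4A and 28.6% for retinoic acid receptor targets. ROR targets stood at 14.3% and farnesoid X receptor targets at 10%, where PPAR alpha targets had 50% and PPAR gamma targets 85.7%. Of 9 liver X receptor targets, 3 rose with diet (Mylip 0.50 ± 0.10, Abcg1 0.45 ± 0.08 and Scd1 0.31 ± 0.06) and 1 fell, Abca1, the cholesterol efflux pump (-0.45 ± 0.07), each with an adjusted p of at most 0.00863. Of 10 farnesoid X receptor targets, which include the member Nr0b2, 0 rose and 1 fell, Fetub (-0.33 ± 0.05, adjusted p = 0.00249). That list does not separate genes the receptor induces from genes it represses, so its counts give no direction of receptor activity. Of 7 thyroid hormone receptor targets 3 rose, malic enzyme Me1 (0.95 ± 0.17), the deiodinase Dio1 (0.49 ± 0.12) and Gpd2 (0.45 ± 0.12), with adjusted p of at most 0.0277. Of 7 retinoic acid receptor targets, which include the member Rarb, 1 rose (Lrat, which esterifies retinol and is also a stellate cell marker, 0.71 ± 0.20, adjusted p = 0.0357) and 1 fell (Rarres1, -0.68 ± 0.20, adjusted p = 0.0427). Of 10 HNF4A targets Apoa4 rose by 2.32 ± 0.30 (adjusted p = 0.000863), and the clotting genes F7 and Proz fell by 0.32 ± 0.07 and 0.19 ± 0.05 (adjusted p = 0.00954 and 0.0297). Of 7 ROR targets 1 passed, Cyp7b1, an oxysterol hydroxylase, which fell by 1.17 ± 0.08 with diet (adjusted p = 7.85e-06) and by 0.79 ± 0.11 with penicillin on the high-fat diet (adjusted p = 0.00861, beside 0.087% of all genes lower), while Rora rose with diet. The fall with penicillin did not pass without penicillin high-fat 1 and penicillin chow 1 together. Without the 3 arrays of low 18S signal, which leaves penicillin chow 1 alone in its group, the diet count of each of these lists changed.

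**Figure D5:**
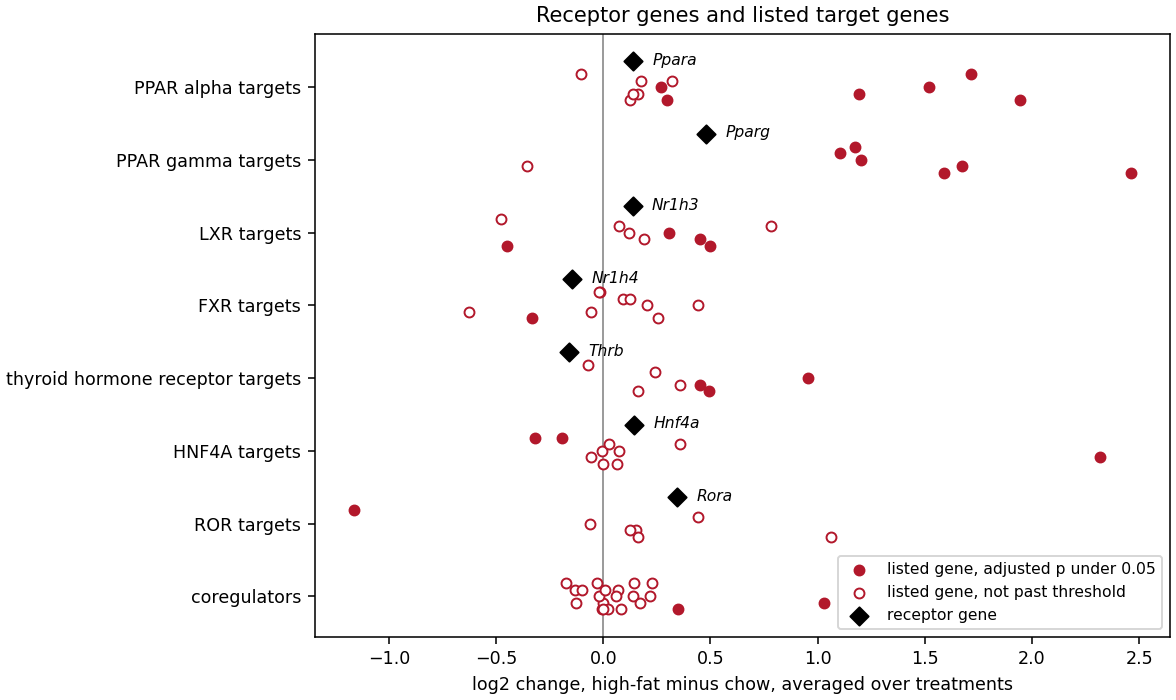
Averaged diet effect (log2, high-fat minus chow, 6 mice per diet) of listed target genes of 7 receptors and of coregulators (circles, filled where the adjusted p was under 0.05), with each receptor's own mRNA as a diamond. The receptor genes lie between -0.16 (Thrb) and 0.48 (Pparg), while PPAR targets reach 2.46 (Cidea) and Cyp7b1 lies at -1.17. The Cidea change was 4.36 in penicillin mice and 0.56 in control mice.

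Coregulators, the partner proteins through which receptors act, were counted in the same way. Of 21 tested, 2 rose with diet, a share of 9.52% beside 9.63% of all genes, and 0 fell: Ppargc1a, the coactivator PGC-1 alpha, by 1.03 ± 0.15 (adjusted p = 0.00164), and Ncoa7 by 0.35 ± 0.09 (adjusted p = 0.0228). The count of coregulators that rose was 1 without penicillin high-fat 1 and penicillin chow 1 together, beside 11.7% of all genes in either direction. For penicillin on the high-fat diet 0 of 21 passed, beside 0.341% of all genes. Of 8 detected receptors of the family that are not members, 1 rose with diet, Nr1i2, the pregnane X receptor of drug metabolism (0.43 ± 0.07, adjusted p = 0.00191), and 0 fell.

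Replicate spread set what could be seen for single members. The median within-group SD was 0.164 over the 30 members and 0.130 over all genes. It was highest for Nr0b2 (0.66), Pparg (0.44), Nr3c2 (0.37) and Nr4a1 (0.34), and lowest for Rxra (0.064), Ppard (0.073) and Nr1h3 (0.082).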

How the data were processed

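Liver RNA of 12 mice in 4 groups of 3 was measured on 3′ expression arrays. The authors deposited log2 values for 45101 probe sets, which the submitters' processing notes credit to RMA and affy; no version is stated. RMA gives all arrays 1 distribution (array medians 5.52 to 5.59), so changes are relative to the bulk of genes, and dim genes are compressed. Arrays have no read depth; their number limits the precision.

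From the deposited log2 values, the brightest single-symbol probe set per gene was tested with limma 3.58.1 (R 4.3.3): 4 group means, 8 residual degrees of freedom, eBayes, and Benjamini-Hochberg adjustment over 13788 genes. Gene symbols came from the platform's annotation, and gene IDs were looked up in a GRCm38.p6 table. The 7 contrasts are the penicillin effect on each diet, the diet effect in each kind of mouse, their interaction and both effects averaged. The pipeline was tested on simulated data. Members, gene lists and tests were chosen with earlier results of these data known. Values on every array are given for members past the threshold and for up to 3 more per contrast with the smallest p; of each list up to 4 genes past the threshold are named by p, otherwise at most 2. Batches of scanning or housing were not tested. Probe sets as single features, the fit without penicillin high-fat 1 and penicillin chow 1, and counts of lists and probe sets without arrays were added after seeing the data.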

Additional observations from a re-analysis of the deposited data

How the results depend on the processing

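Each alternative was run on all 7 contrasts unless it could not be. The number of members past the threshold for the averaged diet effect (2) was 1 under cyclic loess and 0 with the replicate block, 0 with 18S signal as a covariate, 0 with the clock score as a covariate and 0 to 2 when 1 array was left out. For the diet effect in penicillin mice (0) it was 1 under cyclic loess, array weights, a trended robust variance or the 18S covariate, 2 without the 3 arrays of low 18S signal, and 0 to 1 when 1 array was left out. For penicillin on chow and for penicillin averaged over diets (0 each) it was 1 without those 3 arrays. The counts for penicillin on the high-fat diet, the diet in control mice and the interaction were 0 in every fit run. With the mean of all probe sets Esrrg turned to -0.23 for penicillin on chow and 0.23 for the interaction. For diet Esrrg turned to 0.12 in penicillin mice and 0.0086 averaged over treatments. These turns came by its second probe set of opposite sign, which met the detection rule only through the high-fat livers. Pparg turned to -0.10 for penicillin averaged over diets without the 3 arrays of low 18S signal. With the replicate number as a block the adjusted p of the averaged diet effect was 0.0604 for Rora and 0.0663 for Nr3c2. Deviations of same-numbered mice correlated at -0.23 to 0.17 over all genes tested. The labels do not say what the numbers mark, and a correlation over all genes cannot show whether they pair the mice. Over all alternatives Rora stayed between 0.21 and 0.54 and Nr3c2 between -0.79 and -0.50. The cause of these moves was not tested. The averaged diet count was 3 with no filter, the mean of probe sets, array weights or without penicillin high-fat 1 and penicillin chow 1. Over all genes the background moved as well: 47 genes for penicillin on the high-fat diet became 183 with array weights, 89 with the 18S covariate and 148 without the 3 arrays, 20 for penicillin averaged over diets became 108, 179 and 416, and 1 for penicillin on chow became 251 without the 3 arrays. For the diet in control mice 124 became 571 with array weights and 70 with the block, in penicillin mice 1147 became 482 with only the arrays compared and 535 with the clock score, averaged 1997 became 1215 with the clock score, and the interaction ranged from 0 to 24 genes around 6.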

Other observations

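Immediate early genes, the class to which the NR4A receptors belong, moved with diet in part. Of 15 detected on the list, 4 were higher on the averaged diet effect and 0 were lower, beside 9.63% and 4.85% of all genes. Dusp1, a phosphatase that turns off MAP kinases, was higher by 1.197 ± 0.16 (adjusted p = 0.00101), the transcription factor gene Jun by 1.17 ± 0.15 (adjusted p = 0.000859), Klf6 by 0.69 ± 0.18 (adjusted p = 0.0272) and Zfp36, which destabilises cytokine mRNAs, by 0.39 ± 0.09 (adjusted p = 0.0171). All 6 high-fat livers lay above all 6 chow livers for Dusp1 and Zfp36 and not for Jun and Klf6. Within penicillin mice Jun (1.46 ± 0.22), Dusp1 (1.36 ± 0.23) and Zfp36 (0.63 ± 0.13) were higher on the high-fat diet, with adjusted p of at most 0.0139, beside 8.32% of all genes. In control mice 0 of 15 passed, with Dusp1 at 1.04 ± 0.23 (adjusted p = 0.0599), and none of the 15 passed for the interaction. The time of day at collection is not given in the sources used here, and its part was not tested.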
